A study of Mus musculus with 24 samples.

Results

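Passage 2 organoids of the mouse salivary gland were compared with passage 1 organoids in the sham-irradiated groups at day 14. This asks how the passages differed in cells that were not irradiated. Anything else that moved with passage, such as the share of reads on no gene given below, cannot be told apart from replating. Libraries were assigned by their labels, and 6 of the 24 libraries of the series belong here, 3 of passage 1 and 3 of passage 2. The series measured transcripts in salivary gland stem/progenitor cells grown as organoids, taken 14 or 90 days after irradiation (IR) or sham irradiation, at 2 passages. Both groups used here came from C57BL/6 mice, were sham-irradiated, and were labelled 14 days, so they differ in passage alone as far as the labels say. All libraries shared a Matrigel culture in a medium with EGF, FGF2, insulin, the glucocorticoid dexamethasone and the small molecule Y-27632. The labels give neither the sex nor the age of the mice, nor the radiation dose used in the irradiated groups. They do not say whether the replicates of a group were separate animals or cultures, nor which passage 1 culture gave rise to which passage 2 culture. The p-values below thus rest on how far libraries of the same group spread, and that spread may be technical. It was estimated jointly over all 8 groups, so day 90 and irradiated libraries also shape the day 14 p-values.

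A salivary duct is lined by luminal cells, which carry the simple-epithelial keratins Krt7, Krt8, Krt18 and Krt19 and move ions and water, and by basal cells beneath them, which carry Krt5 and Krt14. Basal cells serve as progenitors of the duct and, under stress or in culture, can take on squamous keratins and cornified-envelope proteins of the kind made by stratified epithelia. Organoids are commonly passaged by breaking them into single cells and replating them, so each passage starts again from the cells that can found a new organoid.

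Counts on genes came to 1730243 to 2403073 in the 6 libraries. Reads that fell on no gene made up 26.5%, 18.7% and 16.5% of the passage 1 libraries and 16.1%, 14.2% and 12.9% of the passage 2 libraries, so this share moved with passage without overlap. No 2 replicates of a group agreed within sampling noise (chi-square over its degrees of freedom 2.31 to 8.98), so none was merged as a library deposited again, which does not show that they were separate cultures. Levels below are in CPM, a gene count divided by its library total and TMM factor on the usual scale, and log2 fold changes are passage 2 over passage 1.

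Of 10563 genes tested with edgeR, 125 passed an adjusted p of 0.05 and are termed called, which is 1.18% of those tested. Only 23 (0.218% of those tested) were higher in passage 2, and 102 (0.966%) were lower. Counts of called list members below are to be read against these shares. After TMM scaling, which centres most genes near 0, the median log2 fold change over all tested genes was 0.002, and 50.2% were positive. Groups without overlap were found in 17% of tested genes, with passage 2 above passage 1 in every library for 8.3% and below it for 8.67%. All 125 called genes had groups that did not overlap, and 11 of the higher and 45 of the lower ones differed by more than 4-fold. The median log2 fold change was 1.93 among the higher calls (range 0.67 to 4.90) and -1.91 among the lower calls (range -8.00 to -0.68). The lower calls included ductal keratins, ion transporters, claudins and matrix proteins, and the higher calls included calprotectin and a stress keratin.

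**Figure D1:**
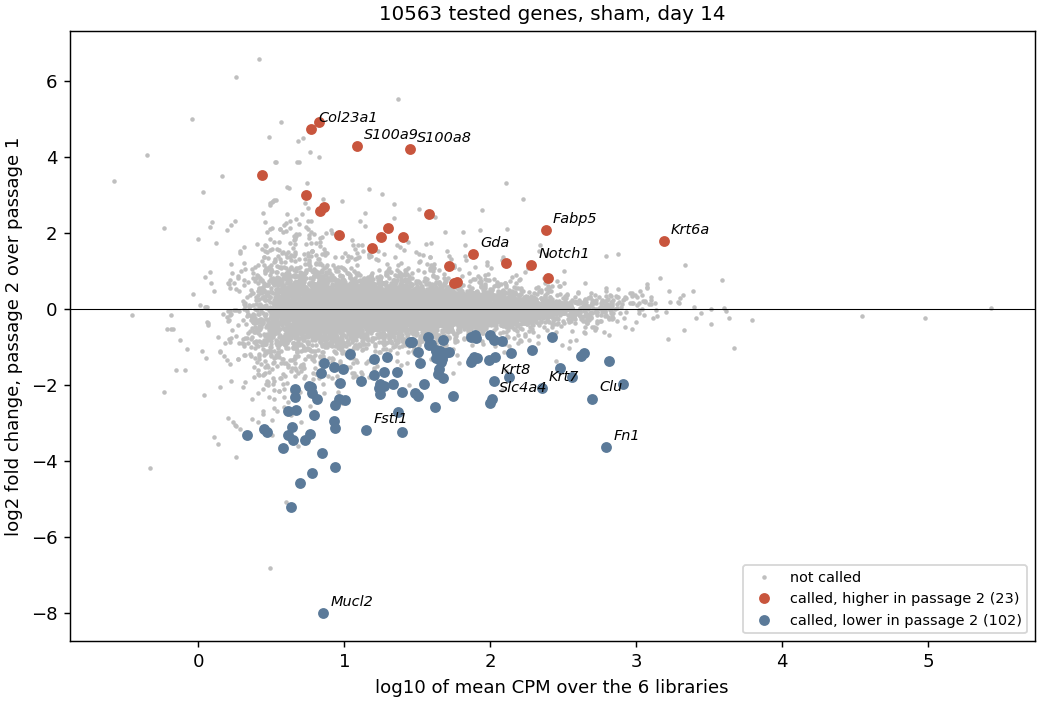
Log2 fold change of passage 2 over passage 1 (vertical) against the log10 of the mean CPM over the 6 libraries (horizontal) for the 10563 tested genes. The 102 genes called lower (blue) reach well-expressed genes such as Fn1 and Clu, and the 23 called higher (red) include S100a8, S100a9 and Krt6a.

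The count of calls depended on which library was left out. It fell to 66, 54 and 49 without passage 1 replicates 1, 2 and 3, and to 95, 34 and 20 without passage 2 replicates 1, 2 and 3. In each of these 6 fits all 125 genes kept their direction. In every one of the 6, 20 genes stayed called: 17 lower (Angpt1, Celf2, Cldn2, Clu, Cyba, Dync1i1, Fn1, Fstl1, Homer2, Krt18, Krt7, Krt8, Mertk, Ppp1r9a, Slc4a4, Sorbs2 and Wfdc2) and 3 higher (Gda, Notch1 and S100a8). With the share of reads on no gene as a covariate, a fit chosen after seeing the data, 15 genes were called, all of them among the 125. They included Krt7, Krt8, Krt18, Wfdc2, Slc4a4, Fn1, Fstl1 and Gda, and neither S100a8 nor Clu, Cldn2, Cyba and Notch1.

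Of the 16 tested genes of the luminal duct list 6 were called, all lower: Krt8, Krt18, Krt7, Wfdc2, Slc12a2 and Cldn3. Of all tested genes 0.966% were called lower. In 12 of the 16 passage 2 was below passage 1 in every library, against 8.67% of all tested genes, and none had a positive fold change, against 50.2% of all. The list's median log2 fold change was -1.29, and its summed level was 4430, 4310 and 4390 CPM in passage 1 and 2210, 2270 and 2290 CPM in passage 2. In a bulk library, fewer luminal cells and less of these RNAs per cell cannot be told apart.

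Krt8, which pairs with Krt18 to form the simple-epithelial filament, was at 127, 170 and 205 CPM in passage 1 and 50.3, 41.2 and 42.4 CPM in passage 2. Its means were 167 ± 39.0 and 44.6 ± 4.98 CPM (SD, n = 3 libraries each), a log2 fold change of -1.91 (SE 0.21, edgeR adjusted p = 7.88e-05). Passage 1 replicate 1 was the lowest of its group, and still above every passage 2 library. Krt18 was at 611, 522 and 551 CPM in passage 1 and at 159, 179 and 150 CPM in passage 2. The 3 passage 2 libraries lay close together, and Krt18 was 3.45-fold lower (log2 fold change -1.79, SE 0.23, edgeR adjusted p = 0.000229). Krt7, the other keratin of ductal lumina, fell 4.23-fold, from 421, 324 and 348 CPM to 110, 72.3 and 75.9 CPM (log2 fold change -2.08, SE 0.30, edgeR adjusted p = 0.000513). Krt19, also a ductal keratin, went from 16.8, 15.1 and 16.4 CPM to 5.09, 7.05 and 4.72 CPM. Its groups did not overlap either, and it did not pass the test (log2 fold change -1.52, SE 0.84, edgeR adjusted p = 0.544). The spread was estimated over all groups. In the day 90 sham groups the SD of Krt19 was 14 CPM in passage 1 and 18.1 CPM in passage 2.

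Krt8 and Krt18 are neighbours on chromosome 15 that are read in opposite directions, with starts 23874 bases apart. Their upstream stretches are shown because these genes fell together by a like amount. The letters TATAA are in capitals where they occur. The sequences are RefSeq's 250 bases before the annotated start on GRCm38.p6, written 5′ to 3′ on the gene's strand. Krt8 lies on the minus strand (chr15:102004343-102004592) and Krt18 on the plus strand (chr15:102027966-102028215).
Krt8: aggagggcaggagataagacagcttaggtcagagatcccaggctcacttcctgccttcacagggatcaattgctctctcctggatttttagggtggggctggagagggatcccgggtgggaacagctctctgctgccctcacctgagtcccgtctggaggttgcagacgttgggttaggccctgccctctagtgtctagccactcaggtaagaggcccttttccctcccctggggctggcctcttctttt
Krt18: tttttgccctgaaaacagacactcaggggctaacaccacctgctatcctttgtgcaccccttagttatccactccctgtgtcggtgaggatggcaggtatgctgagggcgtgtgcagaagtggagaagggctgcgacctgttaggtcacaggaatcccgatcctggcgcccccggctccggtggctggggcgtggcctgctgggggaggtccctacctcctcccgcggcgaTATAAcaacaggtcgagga
The Krt18 stretch holds TATAA 19 bases before the start, and these letters are not in the Krt8 window.

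Other luminal markers showed the same direction. Wfdc2, a secreted whey-acidic-protein family member of duct and airway epithelium, was at 993, 838 and 965 CPM in passage 1 and at 450, 310 and 322 CPM in passage 2 (log2 fold change -1.37, SE 0.20, edgeR adjusted p = 0.000724). Slc12a2, the sodium-potassium-chloride cotransporter that loads secretory epithelia with chloride, was at 636, 522 and 594 CPM against 290, 225 and 222 CPM (log2 fold change -1.25, SE 0.24, edgeR adjusted p = 0.00842). The tight-junction protein Cldn3 was at 69.2, 75.3 and 78.7 CPM against 22.6, 24.7 and 16.3 CPM (log2 fold change -1.82, SE 0.42, edgeR adjusted p = 0.0399). Within each of these genes the groups were apart, and for Cldn3 the lowest passage 1 library was above the highest passage 2 library by a wide margin. Cldn7 gave 56.4 ± 4.93 against 22.6 ± 1.91 CPM (SD, n = 3) and missed the threshold (edgeR adjusted p = 0.0697). Epcam, the pan-epithelial adhesion molecule, differed little, with 480 ± 6.31 against 384 ± 10.3 CPM (SD, n = 3), a log2 fold change of -0.32 (edgeR adjusted p = 0.408). Leaving out 1 library at a time kept 4 or 5 of the 6 luminal calls. Cldn3 lost its call without any 1 of the 6 libraries (edgeR adjusted p 0.0719 to 0.226), and Slc12a2 without passage 2 replicate 2 or 3 (adjusted p at most 0.0931).

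Genes of ion transport and of the tight junction outside that list were also among the lower calls. Slc4a4, the basolateral sodium-bicarbonate cotransporter, was at 161, 188 and 166 CPM in passage 1 and at 49.8, 28.2 and 21.4 CPM in passage 2, a 5.21-fold difference (log2 fold change -2.38, SE 0.38, edgeR adjusted p = 0.00189). Cldn2, the pore-forming claudin of leaky epithelia, was at 64.5, 45.8 and 49.6 CPM against 9.05, 12.9 and 10.3 CPM (log2 fold change -2.30, SE 0.37, edgeR adjusted p = 0.00202). Every passage 2 library of both genes was below every passage 1 library. Atp1b1, the beta subunit of the sodium pump, went from 610 ± 80.4 to 271 ± 24.4 CPM (SD, n = 3; edgeR adjusted p = 0.0479). Cgn, the junctional plaque protein cingulin, went from 24.7 ± 1.87 to 7.07 ± 4.30 CPM (SD, n = 3; edgeR adjusted p = 0.048). Both Atp1b1 and Cgn lost their calls without any 1 of the 6 libraries, with adjusted p up to 0.224 and 0.219. Of the 24 tested genes of the junction list 2 were called, Cldn3 and Cgn, both lower, against 0.966% of all tested genes. The list's median was -0.21. None of the 4 tested ionocyte and sodium-channel genes was called. Among them the chloride channel Cftr was at 16.8, 11.6 and 12.3 CPM against 5.09, 5.29 and 5.14 CPM, without overlap (edgeR adjusted p = 0.192), and Atp6v1b1, a proton-pump subunit, had a log2 fold change of -1.48 (edgeR adjusted p = 0.371). Scnn1a, the alpha subunit of the epithelial sodium channel, had -0.97 (adjusted p = 0.425), and the ionocyte factor Ascl3 was too low to test, with 0 counts in passage 1 and 2 in passage 2.

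**Figure D2:**
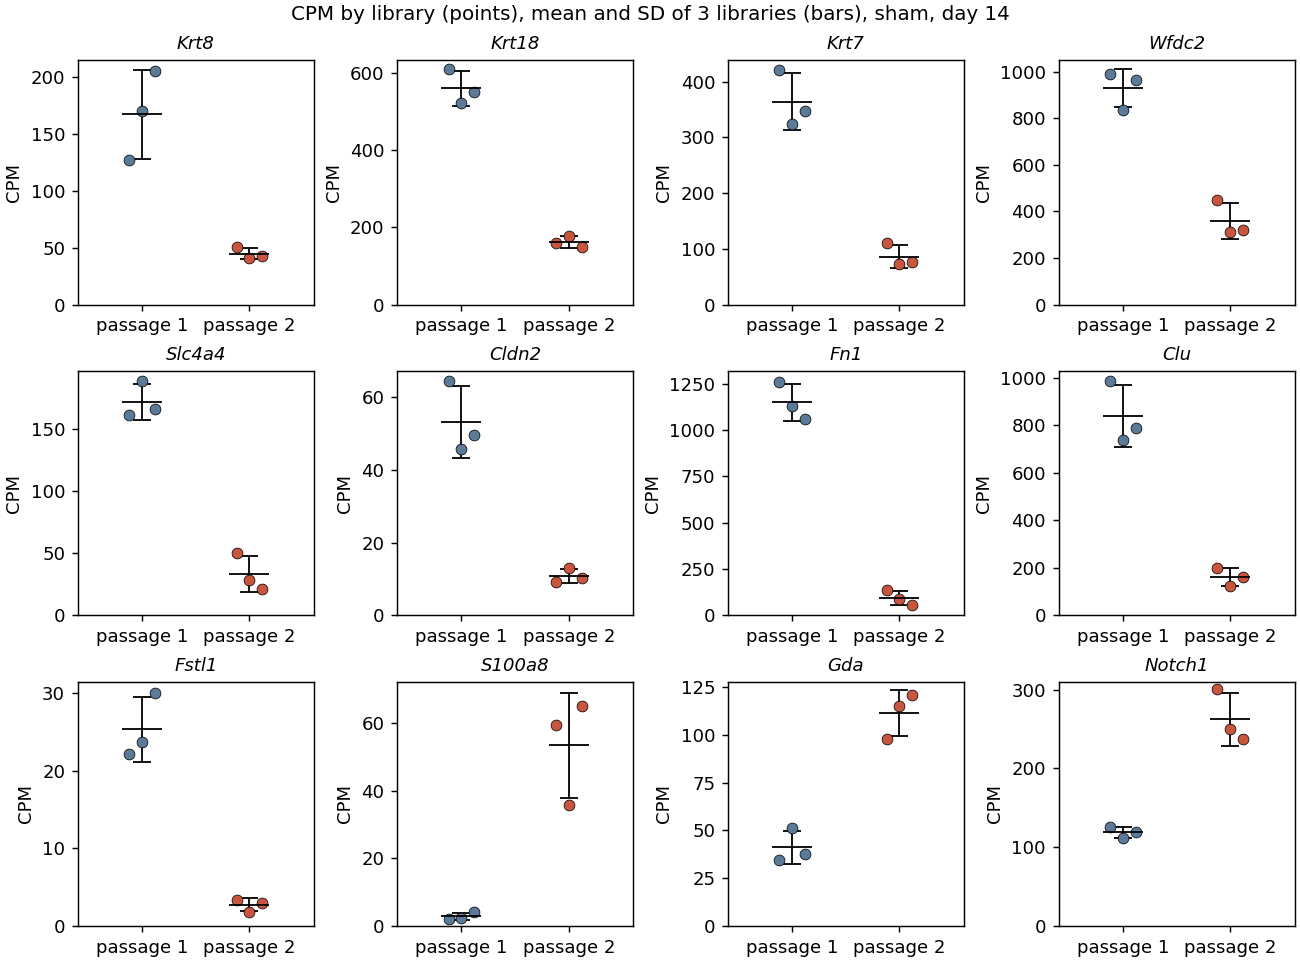
CPM of 12 genes by library (points) in passage 1 (blue) and passage 2 (red), with the mean and SD of 3 libraries as bars. All 12 stayed called whichever of the 6 libraries was left out, with Krt8, Krt18, Krt7, Wfdc2, Slc4a4, Cldn2, Fn1, Clu and Fstl1 lower and S100a8, Gda and Notch1 higher in passage 2.

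Of the 7 tested acinar genes Car6, the carbonic anhydrase secreted into saliva, was called lower, at 13.4, 5.21 and 11.2 CPM against 0, 1.76 and 0.857 CPM (log2 fold change -3.44, SE 0.83, edgeR adjusted p = 0.0444). The list's median was -1.03, with 2 of 7 positive. Of all tested genes 0.966% were called lower and 50.2% were positive. Its summed level was 581, 430 and 546 CPM in passage 1 and 500, 1610 and 1420 CPM in passage 2. The list members Smgc and Muc19, which did not pass the filter on low counts, had more counts summed over passage 2. These were 2 and 100 for Smgc and 6 and 50 for Muc19, with at most 26.1 and 13.3 CPM in any library. Mucl2, a mucin-like salivary gene outside the list, had 74 counts over the 3 passage 1 libraries and 0 over the 3 passage 2 libraries, which at a floor of 3 counts over the group is at least 27.7-fold lower (edgeR adjusted p = 0.0213). Pip, the prolactin-inducible protein of saliva and tears, had a positive fold change that did not pass the test. It was at 425, 347 and 430 CPM in passage 1 and at 455, 1520 and 1320 CPM in passage 2, so passage 2 replicate 1 was near passage 1 while the other two were over it (edgeR adjusted p = 0.373). Prol1, a proline-rich secreted protein, was at 10.8, 1.74 and 10.7 CPM against 0.566, 0 and 0 CPM (edgeR adjusted p = 0.0940), and Chrm3, the muscarinic receptor that triggers saliva, at 37.5 ± 3.81 against 17.2 ± 5.22 CPM (SD, n = 3; edgeR adjusted p = 0.0576). Both missed the threshold with groups apart. Aqp5, the acinar water channel, was at 53.6 ± 27.2 against 25.8 ± 3.76 CPM (SD, n = 3; edgeR adjusted p = 0.337). Car6 lost its call without any 1 of the 6 libraries (adjusted p up to 0.238), and Mucl2 kept it only without passage 1 replicate 2 (adjusted p up to 0.136 otherwise). None of the 3 tested granular-duct genes was called, and Klk1, a kallikrein of granular ducts, was at 84.7, 3.47 and 46.0 CPM against 18.7, 5.88 and 8.57 CPM, with overlapping groups (edgeR adjusted p = 0.293).

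Of the 24 tested TGF-beta and matrix genes 2 were called, both lower, against 0.966% of all tested genes called lower. Fn1, which encodes fibronectin, was at 1260, 1130 and 1060 CPM in passage 1 and at 136, 87.0 and 57.0 CPM in passage 2. It was 12.4-fold lower (log2 fold change -3.63, SE 0.51, edgeR adjusted p = 0.000503), and the spread within each passage was small beside the gap between them. Thbs1, the matricellular protein thrombospondin 1, was at 492, 458 and 397 CPM against 127, 183 and 146 CPM (log2 fold change -1.56, SE 0.29, edgeR adjusted p = 0.0067), and its call was lost without passage 2 replicate 3 (adjusted p = 0.0693). The list's median was -0.32, with 6 of 24 positive, against 50.2% of all tested genes. Lox, the collagen cross-linking enzyme, was at 195 ± 24.1 against 62.6 ± 33.5 CPM (SD, n = 3) and just missed the threshold (edgeR adjusted p = 0.0552). Outside the list, the fibrillar collagen Col11a1 went from 19.5, 10.4 and 9.20 CPM to 1.13, 1.76 and 0 CPM (edgeR adjusted p = 0.0213). Nephronectin (Npnt), a basement-membrane ligand of integrins, went from 15.6 ± 2.28 to 1.72 ± 0.543 CPM (SD, n = 3; edgeR adjusted p = 0.0442). The call of Col11a1 was lost without 4 of the 6 libraries (passage 1 replicate 1 and each of passage 2; adjusted p up to 0.171) and that of Npnt without any of the 6 (up to 0.224).

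Defining markers of mesenchymal cells were near absent in both passages. Of the mesenchymal list Col1a2, Col3a1, Lum, Pdgfrb and Thy1 had no count in any of the 6 libraries, and Col1a1 had 1 count in each group. The list's summed level, most of it from Vim and Postn, was 681 to 937 CPM in passage 1 and 303 to 853 CPM in passage 2. None of its 3 tested genes was called, Postn had a log2 fold change of -0.27 (edgeR adjusted p = 0.956) and Prrx1 of 1.48 (adjusted p = 0.404). Vim stood at 37.6, 49.8 and 57.7 CPM against 103, 31.7 and 18.0 CPM, where passage 2 replicate 1 was above all others. In the list for epithelial to mesenchymal transition 1 of 11 tested genes was called, Fn1 itself.

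Of 25 tested genes of the list of YAP targets and regeneration, 3 were called, all lower, against 0.966% of all tested genes. A positive fold change was found in 5 of them, against 50.2% of all (median -0.33). Clu, the secreted chaperone clusterin that marks regenerating epithelia, was at 987, 740 and 788 CPM in passage 1 and at 201, 125 and 162 CPM in passage 2 (log2 fold change -2.36, SE 0.40, edgeR adjusted p = 0.00311). Ankrd1, a muscle ankyrin-repeat protein and a common readout of YAP, was at 6.05, 5.21 and 4.09 CPM against 0.566, 0.588 and 0.429 CPM (log2 fold change -3.16, SE 0.68, edgeR adjusted p = 0.0235). Anxa3, a membrane-binding annexin, was at 255, 234 and 300 CPM against 195, 94.1 and 84.4 CPM (log2 fold change -1.08, SE 0.26, edgeR adjusted p = 0.0442). Passage 2 replicate 1 was the highest of its group for Clu and for Anxa3, and still below all of passage 1. Ccn2, a matricellular YAP target, was at 69.2, 302 and 215 CPM against 15.3, 51.1 and 66.4 CPM and did not pass (edgeR adjusted p = 0.182). Ankrd1 and Anxa3 each lost the call without 5 of the 6 libraries, all but passage 1 replicate 3 for Ankrd1 and all but passage 2 replicate 1 for Anxa3, with adjusted p up to 0.170 and 0.283.

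The letters GGAATG, read on either strand, are the core that TEAD factors, the DNA-binding partners of YAP, are known to bind. They occurred in the 250 bases before the start in 10 of the 17 list members found in RefSeq's promoter table (58.8%). The share was 14.4% of the 27025 genes in that table and 12.5% of the 8263 tested genes in it. The list was made of YAP targets, so its share does not bear on passage. Of the 102 lower genes 77 were in the table and 11 of those held the letters (14.3%), and of the 23 higher genes 15 were in it and 1 held them (6.67%), so the called genes as a set were near the table's share. The Ankrd1 stretch is shown because it holds these letters in 2 places, 210 and 123 bases before the start. It lies on the minus strand (chr19:36119845-36120094, GRCm38.p6), with GGAATG and TATAA in capitals.
Ankrd1: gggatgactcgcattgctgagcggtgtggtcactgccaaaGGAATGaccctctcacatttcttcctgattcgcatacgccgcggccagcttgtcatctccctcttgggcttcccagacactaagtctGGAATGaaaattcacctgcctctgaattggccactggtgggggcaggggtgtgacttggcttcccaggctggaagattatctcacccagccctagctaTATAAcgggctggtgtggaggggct
Such a match describes the letters and does not show binding.

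Fstl1, a secreted glycoprotein that modulates BMP signalling, was at 22.2, 23.7 and 30.1 CPM in passage 1 and at 3.39, 1.76 and 3 CPM in passage 2 (log2 fold change -3.19, SE 0.43, edgeR adjusted p = 0.000416). It was the only call among 21 tested BMP-pathway genes, whose median was -0.03. Bmp4, the ligand named in the title of the series, was at 4.70, 2.32 and 7.67 CPM against 1.13, 0 and 0.857 CPM. All passage 2 libraries were below all passage 1 libraries, but the difference did not pass (log2 fold change -2.76, SE 0.70, edgeR adjusted p = 0.0568). The BMP target genes Id1, Id2 and Id3 had log2 fold changes of -1.23, -0.68 and -1.31, and none passed (edgeR adjusted p 0.415, 0.234 and 0.354). Of these only Id3 had overlapping groups.

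Angpt1, Tnfrsf11b, Sema3e, Mertk, Spp1 and Cp, which are in none of the gene lists, were also called lower. Angpt1, the ligand of the Tie2 receptor of blood vessels, was at 60.5, 77.6 and 76.7 CPM against 28.8, 39.4 and 29.6 CPM (log2 fold change -1.14, SE 0.19, edgeR adjusted p = 0.00225). Tnfrsf11b, the decoy receptor osteoprotegerin, was at 65.9, 70.1 and 77.7 CPM against 10.2, 14.1 and 11.6 CPM (log2 fold change -2.57, SE 0.46, edgeR adjusted p = 0.00609). The guidance factor Sema3e was at 56.0 ± 2.70 against 14.2 ± 7.93 CPM (SD, n = 3; edgeR adjusted p = 0.0162). The groups of these 3 genes were apart, though passage 2 replicate 1 held 23.2 CPM of Sema3e, over 2 times the level of the other two. Mertk, a receptor kinase for clearing dead cells, was at 12.8, 9.85 and 9.20 CPM against 1.13, 1.18 and 0.857 CPM (log2 fold change -3.28, SE 0.51, edgeR adjusted p = 0.00178). Spp1, the phosphoprotein osteopontin, was at 40.3, 44.6 and 37.3 CPM against 15.3, 0.588 and 3 CPM (edgeR adjusted p = 0.0444), and Cp, the copper-carrying ferroxidase ceruloplasmin, at 1230, 1490 and 1170 CPM against 348, 293 and 343 CPM (edgeR adjusted p = 0.0068). Tnfrsf11b lost its call without passage 2 replicate 3 (adjusted p = 0.0693), Cp without passage 2 replicate 2 or 3 (up to 0.0674), Sema3e without passage 1 replicate 2 or passage 2 replicate 2 or 3 (up to 0.146), and Spp1 without any but passage 2 replicate 1 (up to 0.280).

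Several lower calls with large fold changes were genes at a few CPM in passage 1. Dync1i1, an intermediate chain of the dynein motor, was at 8.06, 8.11 and 9.20 CPM against 0, 0.588 and 0 CPM (log2 fold change -5.22, SE 0.77, edgeR adjusted p = 0.000814). Ppp1r9a, the actin-binding neurabin, was at 18.8, 8.11 and 7.67 CPM against 0.566, 0.588 and 0.429 CPM (log2 fold change -4.31, SE 0.69, edgeR adjusted p = 0.0019). At such levels a passage 2 value stands for 0 or 1 read, so the size of the fold change is loosely set, though the groups are apart. Celf2, an RNA-binding regulator of splicing, was better measured, at 45.7, 40.0 and 49.1 CPM against 6.79, 3.53 and 3.86 CPM (log2 fold change -3.25, SE 0.40, edgeR adjusted p = 0.000229). The cytoskeletal adaptor Sorbs2 was at 168 ± 14.8 against 30.5 ± 3.12 CPM (SD, n = 3; edgeR adjusted p = 0.000503), and the scaffold Homer2 at 108 ± 18.0 against 40.6 ± 2.19 CPM (edgeR adjusted p = 0.000416). Cyba, the membrane subunit of the NADPH oxidase, was at 10.9 ± 1.40 against 1.48 ± 0.801 CPM (edgeR adjusted p = 0.00526). These 6 kept their calls whichever library was left out.

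Bend7, Fgd3, Atp10b, C1qtnf1 and Scx were also called lower, with log2 fold changes of -4.59, -4.16, -3.32, -3.12 and -2.95 (edgeR adjusted p 0.0068, 0.00873, 0.0406, 0.0068 and 0.0252). Scx encodes scleraxis, a transcription factor of tendon, and Fgd3 an exchange factor for a small GTPase. The imprinted adaptor of insulin-type receptors Grb10 was the 1 call among 14 tested imprinted and growth factor genes, at 7.39, 11 and 6.13 CPM against 1.70, 0.588 and 0 CPM (edgeR adjusted p = 0.00609). Igfbp2, an insulin-like growth factor-binding protein of the same list, was at 5.38, 7.53 and 7.67 CPM against 28.8, 47.0 and 34.7 CPM, without overlap, and did not pass (adjusted p = 0.133). Sult1a1, a sulfotransferase, was the 1 call among 17 tested glucocorticoid-response genes (log2 fold change -3.66, edgeR adjusted p = 0.0436, list median -0.15). Of the 7 called genes of this paragraph, Grb10 lost its call without passage 2 replicate 3 alone, Bend7, Fgd3 and C1qtnf1 without passage 2 replicate 2 or 3, Scx without 4 libraries (passage 1 and passage 2 replicates 2 and 3), and Atp10b and Sult1a1 without any 1 of the 6, with adjusted p up to 0.259. The lower calls not named here had log2 fold changes within the range given for all 102.

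Of 19 tested genes of squamous differentiation 3 were called, all higher (0.218% of all tested genes were): S100a8, S100a9 and Krt6a. With the share of reads on no gene as a covariate 0 of them were called. In 9 of the 19 passage 2 was above passage 1 in every library, against 8.3% of all tested genes, and 18 had a positive fold change, against 50.2% of all, with a median of 1.79. The summed level of the list was 858, 918 and 1010 CPM in passage 1 and 2750, 3440 and 3900 CPM in passage 2. S100a8 and S100a9 encode the 2 chains of calprotectin, made by neutrophils and by stressed stratified epithelium. S100a8 was at 2.02, 2.32 and 4.09 CPM against 59.4, 35.9 and 65.2 CPM, which is 18.3-fold higher (log2 fold change 4.19, SE 0.68, edgeR adjusted p = 0.00215). S100a9 was at 1.34, 0.579 and 1.53 CPM against 20.4, 14.7 and 34.7 CPM (log2 fold change 4.28, SE 0.89, edgeR adjusted p = 0.0198). Both chains were low in all of passage 1 and high in all of passage 2. Krt6a, a keratin of wounded and stressed epithelium, was at 657, 677 and 737 CPM against 2140, 2410 and 2630 CPM (log2 fold change 1.79, SE 0.44, edgeR adjusted p = 0.0444). S100a9 lost its call without any 1 passage 1 library or passage 2 replicate 3 (adjusted p up to 0.136), and Krt6a without any 1 of the 6 libraries (adjusted p 0.0636 to 0.199), although its groups were far apart. Krt6a and Krt6b are near-identical copies whose reads the authors' counting could have split, so their separate values are uncertain.

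The remaining squamous genes were not called. Krt16, a partner of Krt6a, was at 17.5, 30.1 and 26.6 CPM against 119, 156 and 176 CPM (log2 fold change 2.59, SE 0.88, edgeR adjusted p = 0.204). Krt6b was at 10.8, 18.5 and 39.9 CPM against 109, 247 and 342 CPM (edgeR adjusted p = 0.202), and the cornified-envelope precursor Sprr1b at 12.1, 30.1 and 15.8 CPM against 69.0, 77.0 and 88.3 CPM (edgeR adjusted p = 0.120). These 3 had groups without overlap. Krt10, a keratin of suprabasal epidermis, was at 0, 6.37 and 5.11 CPM against 4.52, 38.8 and 54.4 CPM, so that passage 2 replicate 1 lay among the passage 1 libraries (edgeR adjusted p = 0.148).

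The letters TGANTCA are the usual site of AP-1 factors. Their pattern reads the same on both strands and cannot overlap GGAATG in full. They occurred in 7 of the 13 tested squamous genes found in the promoter table (53.8%). The share was 7.82% of all genes in it and 5.36% of the tested genes in it. None of the 7 squamous genes with the letters was called. Their share describes the chosen list and does not bear on passage. Among the called genes they occurred in 7 of the 77 lower (9.09%) and 1 of the 15 higher (6.67%). The Sprr1b stretch (chr3:92438780-92439029, minus strand, GRCm38.p6) is shown because it holds the letters 111 bases before the start, with TATAA at 30. Both are in capitals.
Sprr1b: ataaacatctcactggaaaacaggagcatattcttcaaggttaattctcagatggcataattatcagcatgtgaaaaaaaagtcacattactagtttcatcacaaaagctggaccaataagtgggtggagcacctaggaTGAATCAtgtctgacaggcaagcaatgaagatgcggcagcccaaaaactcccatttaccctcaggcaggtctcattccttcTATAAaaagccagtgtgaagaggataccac
The called squamous genes S100a8 and S100a9 hold no such letters in this window, from which nothing follows about the factor.

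**Figure D3:**
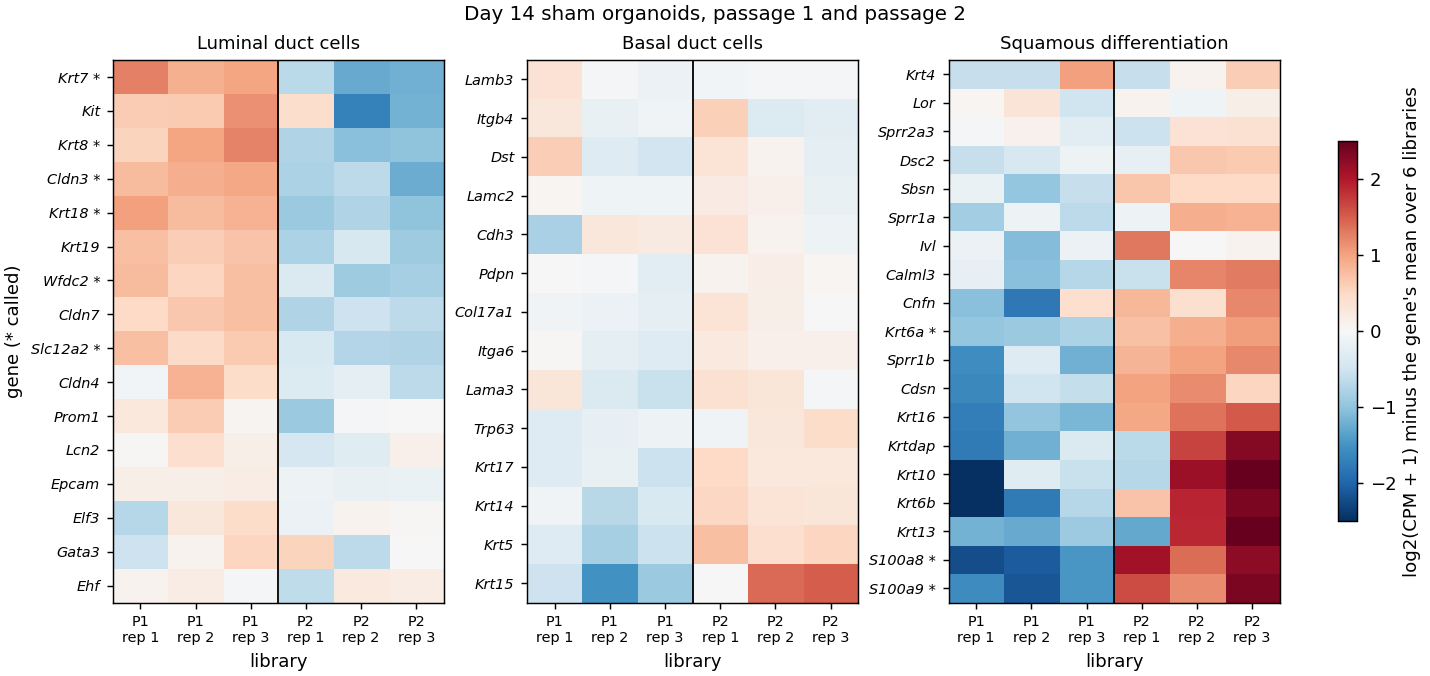
Log2(CPM + 1) minus the gene's mean over the 6 libraries (colour) for the tested genes of 3 lists (rows) by library (columns), with called genes starred. Most luminal genes are above their mean in passage 1 and below it in passage 2, most squamous genes the reverse, and passage 2 replicate 1 is low for Krt10, Krt13 and Krtdap while high for S100a8 and S100a9.

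None of 14 tested basal duct genes was called. A positive fold change was found in 13 of them, against 50.2% of all tested genes, and 8 had passage 2 above passage 1 in every library, against 8.3% of all (median 0.34). The summed level was 6280 to 8530 CPM in passage 1 and 11100 to 12800 CPM in passage 2. Krt5 was at 1580, 1110 and 1360 CPM against 3350, 2670 and 2880 CPM (log2 fold change 1.14, SE 0.43, edgeR adjusted p = 0.275). Krt14 was at 3470, 2300 and 2830 CPM against 5330, 4680 and 4600 CPM (log2 fold change 0.76, SE 0.33, edgeR adjusted p = 0.365). Both basal keratins were higher in every passage 2 library than in any passage 1 library. Krt15 had a log2 fold change of 2.09 and Krt17 of 0.68, and Trp63, the transcription factor that defines basal epithelium, of 0.45 (edgeR adjusted p 0.224, 0.319 and 0.545). Of 17 progenitor genes none was called. The Wnt-responsive receptor Lgr6 was at 24.2, 24.9 and 19.9 CPM against 6.22, 8.23 and 5.57 CPM (edgeR adjusted p = 0.200), and Sox2 at 2.69, 7.53 and 6.64 CPM against 1.13, 47.0 and 66.9 CPM, with passage 2 replicate 1 below all others. Tspan8, a tetraspanin, was at 6.05, 6.37 and 6.64 CPM against 3.39, 0.588 and 0 CPM (edgeR adjusted p = 0.0570), and the receptor kinase Kit at 4.74 ± 1.21 against 1.27 ± 1.85 CPM (SD, n = 3; edgeR adjusted p = 0.512). The protein C receptor Procr had the opposite sign, at 2.69, 6.37 and 6.64 CPM against 16.4, 15.3 and 13.7 CPM (edgeR adjusted p = 0.224). Aldh1a3, a retinal dehydrogenase, and Sox9, a transcription factor of duct progenitors, had overlapping groups (log2 fold changes -0.10 and 0.14, edgeR adjusted p 0.964 and 0.904), and Lgr5 was too low to test, with 3 counts in passage 1 and 1 in passage 2.

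Signalling genes among the higher calls were few. Notch1, the receptor that directs suprabasal fate in stratified epithelia, was at 126, 112 and 119 CPM in passage 1 and at 301, 250 and 237 CPM in passage 2 (log2 fold change 1.14, SE 0.21, edgeR adjusted p = 0.00609). It was the only call of 12 tested Notch-pathway genes, whose median was 0.41. Its ligand Jag1 was at 86.5 ± 21.4 against 133 ± 7.07 CPM (SD, n = 3; edgeR adjusted p = 0.234), and the target Hey1 overlapped between groups (edgeR adjusted p = 0.208). Spry2, a feedback inhibitor of receptor kinases, was the only call of 26 tested genes of the EGF family and MAPK feedback, at 36.3, 27.2 and 34.7 CPM against 58.8, 72.3 and 83.6 CPM (edgeR adjusted p = 0.0251). Hif1a, the oxygen-regulated transcription factor, was at 167, 208 and 167 CPM against 288, 314 and 343 CPM (edgeR adjusted p = 0.021). Notch1 kept its call whichever library was left out, Spry2 lost it without any but passage 2 replicate 1 (adjusted p up to 0.171), and Hif1a without 4 libraries (passage 1 replicates 1 and 3, passage 2 replicates 2 and 3; up to 0.143). None of the 26 tested glycolysis and hypoxia genes was called (median 0.06). The members of lowest p, Egln3 and Pfkp, had log2 fold changes of 2.52 and 0.87 (edgeR adjusted p 0.256 and 0.219). In the EGF list the ligand Nrg1 had 0.59 (adjusted p = 0.625).

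Among other higher calls, Gda, the purine enzyme guanine deaminase, was at 34.3, 51.0 and 37.8 CPM against 97.9, 115 and 121 CPM (log2 fold change 1.44, SE 0.20, edgeR adjusted p = 0.000429). Fabp5, the epidermal fatty acid-binding protein, was at 110, 78.8 and 91.0 CPM against 402, 319 and 439 CPM (log2 fold change 2.06, SE 0.40, edgeR adjusted p = 0.0119). Clca2, a chloride-channel regulator of stratified epithelia, was at 4.70, 5.79 and 11.2 CPM against 26.6, 32.3 and 38.2 CPM (log2 fold change 2.12, SE 0.43, edgeR adjusted p = 0.0165). All 3 were separated between passages. The zinc importer Slc39a6 was at 77.4 ± 11.7 against 179 ± 19.1 CPM (SD, n = 3; edgeR adjusted p = 0.00873), and the ephrin ligand Efna3 at 7.72 ± 2.08 against 23.4 ± 3.01 CPM (edgeR adjusted p = 0.0331). The prostaglandin E2 receptor Ptger4 (log2 fold change 1.90) and the lipoprotein receptor Vldlr (1.89) passed with adjusted p of 0.0399 and 0.0406. Passage 2 replicate 1 was the lowest of its group for both, with 17.5 CPM of Ptger4 against 59.4 and 42.9 CPM.

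Other large rises were mostly in sparse genes. Col23a1, a transmembrane collagen, was at 0, 0.579 and 0.511 CPM against 2.83, 13.5 and 18.0 CPM (edgeR adjusted p = 0.0399). Capns2, a calpain subunit, Slitrk6, a neuronal-type membrane protein, and Skint3, a butyrophilin-like gene of skin, had log2 fold changes of 3, 2.69 and 3.53 (edgeR adjusted p 0.0444, 0.0499 and 0.0445). The mitochondrial transfer RNA genes mt-Tc and mt-Tq were also called, mt-Tc at 0, 0.579 and 0.511 CPM against 2.83, 17.6 and 18.4 CPM and mt-Tq at 15.5, 8.69 and 10.7 CPM against 45.8, 61.1 and 86.6 CPM (edgeR adjusted p 0.0355 and 0.0492). Transfer RNAs carry no long poly(A) tail, and the library kit primes on such tails. Of the called genes in this and the preceding paragraph, Gda alone kept its call whichever library was left out. The others lost it without 2 to 6 of the 6 libraries, with adjusted p up to 0.261 (Capns2, without 5 libraries), 0.259 (mt-Tq), 0.223 (Slitrk6), 0.220 (Vldlr), 0.206 (Col23a1), 0.190 (Ptger4), 0.171 (mt-Tc), 0.159 (Skint3), 0.138 (Efna3), 0.120 (Clca2), 0.0726 (Fabp5) and 0.0720 (Slc39a6).

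Interferon-response genes split the libraries within each passage. None of 48 tested was called, 44 had a positive fold change, against 50.2% of all tested genes (median 0.70), and the groups overlapped for all but 1. In passage 1 replicate 2 and in passage 2 replicates 2 and 3, 47 of the 48 genes were above their own mean over the 6 libraries. In passage 1 replicates 1 and 3 this held for 1 gene each, and in passage 2 replicate 1 for 0. Isg15, an interferon-induced ubiquitin-like protein, was at 17.5, 178 and 14.8 CPM in passage 1 and at 6.79, 242 and 261 CPM in passage 2 (edgeR adjusted p = 0.729). Ifi44 showed the same libraries high, at 36.3, 255 and 26.1 CPM against 2.83, 318 and 268 CPM (edgeR adjusted p = 0.859). The exception to the overlap was Ifi27, with a log2 fold change of -0.67 (edgeR adjusted p = 0.324), and the list's other lowest-p gene, Ifi27l2a, had 2.42 (adjusted p = 0.453). Genes of MHC class I and antigen presentation followed the same libraries: 16 to 18 of 18 were above their mean in the 3 high libraries and 0 or 1 in the other 3.

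**Figure D4:**
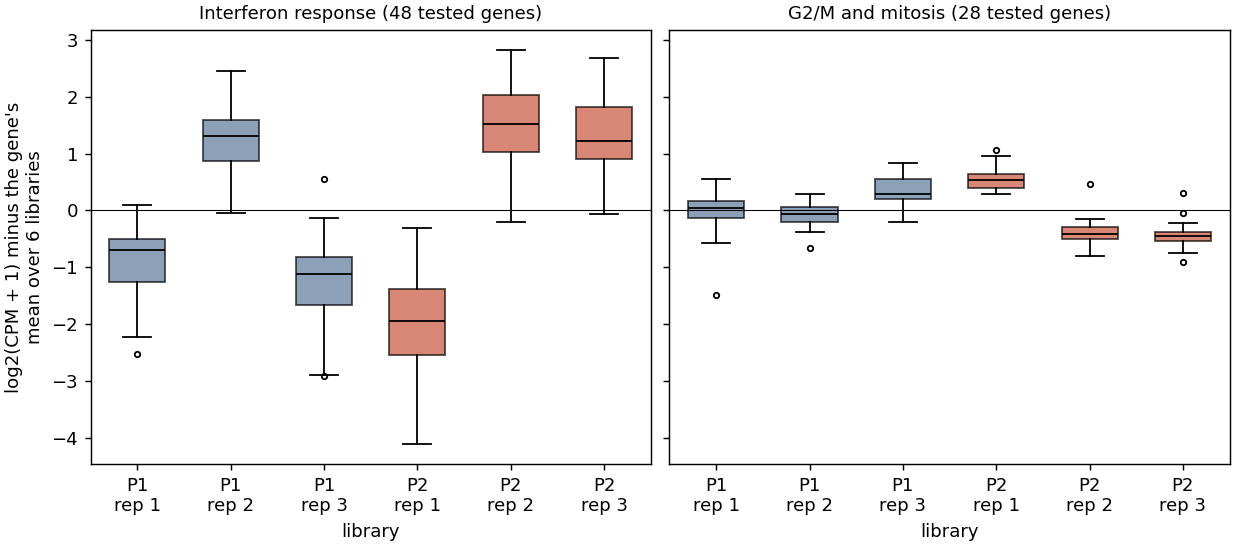
Log2(CPM + 1) minus each gene's mean over the 6 libraries, as boxes (median and quartiles, with whiskers and outlying genes as points), for 48 interferon-response genes and 28 G2/M genes by library. Interferon genes are high in passage 1 replicate 2 and passage 2 replicates 2 and 3, and G2/M genes are highest in passage 2 replicate 1 and lowest in passage 2 replicates 2 and 3.

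Proliferation genes did not separate the passages. None of the 28 G1/S or 28 G2/M genes was called, with medians of -0.15 and -0.18. The G2/M genes were above their mean in 28 of 28 in passage 2 replicate 1, in 27 in passage 1 replicate 3, and in 1 each in passage 2 replicates 2 and 3. Mki67, the proliferation antigen, was at 190, 125 and 150 CPM in passage 1 and at 190, 90.5 and 77.2 CPM in passage 2 (log2 fold change -0.38, SE 0.55, edgeR adjusted p = 0.889). Top2a, the mitotic topoisomerase, was at 400 ± 39.3 against 352 ± 105 CPM (SD, n = 3; edgeR adjusted p = 0.942). The lowest p among G1/S genes belonged to Cdc6 and Tyms, with log2 fold changes of -0.96 and -0.39 (adjusted p 0.498 and 0.721), and among G2/M genes to Aurka and Anln, with 0.72 and -0.41 (0.669 and 0.780).

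Growth-arrest programs also held no call. Of 21 tested p53 targets none was called (median 0.09). Cdkn1a, the p21 inhibitor of cyclin kinases, was at 228, 239 and 188 CPM against 365, 283 and 251 CPM, without overlap (log2 fold change 0.46, edgeR adjusted p = 0.580), and Plk2 had a log2 fold change of 0.78 (adjusted p = 0.190). Gdf15, a stress-induced cytokine, had the opposite sign, with 25.5, 42.9 and 30.1 CPM against 9.05, 20.0 and 9.86 CPM (log2 fold change -1.36, edgeR adjusted p = 0.0873). Of 23 senescence and secreted-factor genes none was called (median 0.03), with Timp1 and Igfbp7 at log2 fold changes of -1.61 and -1.68 (adjusted p 0.058 and 0.157). Cdkn2a, which encodes p16 and p19Arf, had overlapping groups (log2 fold change 0.27, edgeR adjusted p = 0.891).

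The other lists without a call were described by their medians and their members of lowest p. NF-kappaB and acute-phase genes had a median of -0.13 over 23, with Csf3 at 3.20 and Nfkb2 at -0.48 (edgeR adjusted p 0.058 and 0.319). NRF2 and glutathione genes had a median of 0.15 over 23, with the glutathione peroxidase Gpx2 at 0.79 and the transferase Gsta4 at 2.07 (adjusted p 0.105 and 0.098). Immediate early genes had a median of 0.11 over 20, with Egr1 at 1.39 and Fosl1 at 1.03 (0.258 and 0.234). For the Wnt and R-spondin list (median -0.27 over 19) Sfrp1, a secreted Wnt inhibitor, stood at 1.68 and Wnt7b at -1.04 (0.0568 and 0.161). Sfrp1 was at 132, 84.0 and 98.6 CPM against 234, 377 and 391 CPM, without overlap. For retinoic acid genes (median 0.14 over 11) Aldh1a1 stood at 1.45 and Rdh10 at -0.97 (0.337 and 0.234).

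Lists of ribosomal, respiratory-chain, lipid, stress and antigen-presentation genes held no call. Cytosolic ribosomal protein genes had a median of 0.14 over 49, with Rpl32 at 0.48 and Rps3 at 0.35 (edgeR adjusted p 0.234 and 0.418). In 16 of the 49 passage 2 was above passage 1 in every library, against 8.3% of all tested genes, and the summed level was 21700 to 26200 CPM in passage 1 and 27300 to 27900 CPM in passage 2. Nuclear respiratory-chain genes had 0.06 over 38, with Ndufb10 at 0.60 and Ndufb9 at 0.36 (0.0806 and 0.322), and the mitochondrially encoded ones -0.25 over 7, with mt-Co1 at 0.56 and mt-Nd6 at 1.18 (0.334 and 0.234). Cholesterol and fatty acid synthesis had 0.06 over 27, with Dhcr7 at 0.65 and Sc5d at 0.26 (0.639 and 0.772). The unfolded protein and integrated stress response had 0.13 over 27, with Atf5 at 1.11 and Psat1 at 0.84 (0.284 and 0.337), and heat shock chaperones 0.06 over 15, with Bag3 at 0.43 and Dnajb1 at 0.46 (0.188 and 0.348). Ribosomal and structured noncoding RNAs had 0 over 9, with the RNA subunits of the RNase MRP and RNase P enzymes, Rmrp at 2.30 and Rpph1 at 1.35 (0.0576 and 0.061). MHC class I genes had 0.42 over 18, of which 17 were positive, with H2-Q7 at 2.05 and Tap1 at 1.22 (0.612 and 0.436).

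Markers of immune, erythroid and endothelial cells were low. Of the immune list Adgre1, Cd3e, Csf1r and Tyrobp had no count in any of the 6 libraries. Its summed level was 8.74 to 13.9 CPM in passage 1 and 0.857 to 1.76 CPM in passage 2, so it moved with passage in the same direction as the luminal genes, and its part in those results was not tested. Most of it was Lyz2, a lysozyme of myeloid cells, at 4.03, 6.95 and 7.67 CPM in passage 1 and at 0 CPM in all 3 passage 2 libraries, which did not pass the test (edgeR adjusted p = 0.147). Erythroid markers were at or under 0.672 CPM, and Emcn and Tek of the endothelial list had no count. Of the myoepithelial list Actg2, Des and Oxtr had no count, and Acta2, smooth-muscle actin, was at 12.6 ± 2.39 against 6.65 ± 1.18 CPM (SD, n = 3; edgeR adjusted p = 0.696). The summed level of the myoepithelial list was 127 to 141 CPM in passage 1 and 149 to 167 CPM in passage 2. Most of it was Tpm2, with means of 102 and 140 CPM. Mylk and Tpm2 of that list had log2 fold changes of -0.63 and 0.46 (adjusted p 0.609 and 0.616), and of the neural genes Ncam1 had -0.42 (0.630). The means of Ncam1 were 29.4 and 22 CPM.

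The sham groups of day 90 gave the same comparison in libraries that share no sample with it. There 144 genes were called (1.36% of those tested), and 46 were called the same way at both days, which is 36.8% of the calls at day 14 and 31.9% of those at day 90. All 102 lower genes had a negative fold change at day 90 (41 called, median -1.25 against -1.91 at day 14), and 20 of the 23 higher genes a positive one (5 called, median 0.76 against 1.93), where 46.9% of all tested genes were positive. Krt8 had a log2 fold change of -1.50 at day 90 (edgeR adjusted p = 0.000531), Fn1 of -3.46 (0.00083), Clu of -1.71 (0.0257) and S100a8 of 4.05 (0.000531). Wfdc2 and Cp, called at day 14, were at -0.36 and -0.22 there (adjusted p 0.434 and 0.844). Tested as a difference between days, no gene passed (0% of those tested, 479 at an unadjusted p under 0.05, 1 call with DESeq2). The lowest p among named genes with a larger value at day 14 belonged to mt-Tq, mt-Tc and Tubb3, a neuronal tubulin, with differences of 3.95, 6.00 and 7.05 (adjusted p 0.658 each). In the day 14 sham groups Tubb3 had 0 counts over passage 1 and 10 over passage 2, and mt-Tc had 2 and 78. The sizes of their differences are thus loosely set. On the other side stood Zfp612, Sema3f and Gdf15, with -2.78, -1.32 and -1.92 (adjusted p 0.658, 0.749 and 0.749).

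Irradiated organoids at day 14 gave 149 calls between passages (1.41% of those tested), of which 34 were called the same way in sham, 27.2% of the sham calls and 22.8% of the irradiated ones. This contrast was added after seeing the data, to show the values behind the difference between treatments. Of the 102 lower genes 95 had the same sign (29 called, median -1.02), and of the 23 higher genes 21 (5 called, median 0.82). Luminal duct genes had a median of -0.76 with 4 of 16 called lower, among them Krt8 at -1.06 (edgeR adjusted p = 0.013) and Krt18 at -1.01 (0.023). Squamous genes had a median of -0.56 with 0 of 19 called, against 1.79 in sham. S100a8 was at -0.10, S100a9 at 0.59 and Krt6a at -0.85 there (adjusted p 0.968, 0.774 and 0.372).

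Tested as a difference between sham and irradiated, no gene passed (0% of those tested, 729 at an unadjusted p under 0.05, 20 calls with DESeq2). S100a8 differed by 4.29 (SE 0.86, edgeR adjusted p = 0.182), Krt6a by 2.65 (SE 0.61, adjusted p = 0.196), Krt16 by 4.69 (SE 1.22, adjusted p = 0.308) and Krt8 by -0.85 (SE 0.29, adjusted p = 0.514). Gsta4 and the heme transporter Slc48a1 differed by 4.02 and 1.80, and Cp, Ltf, the iron-binding lactoferrin, and Smo, the Hedgehog transducer, by -2.33, -2.64 and -2.23 (adjusted p 0.182 to 0.196). The count depended on single irradiated libraries: it was 24 without passage 1 IR replicate 3 and 5 without passage 2 IR replicate 3.

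**Figure D5:**
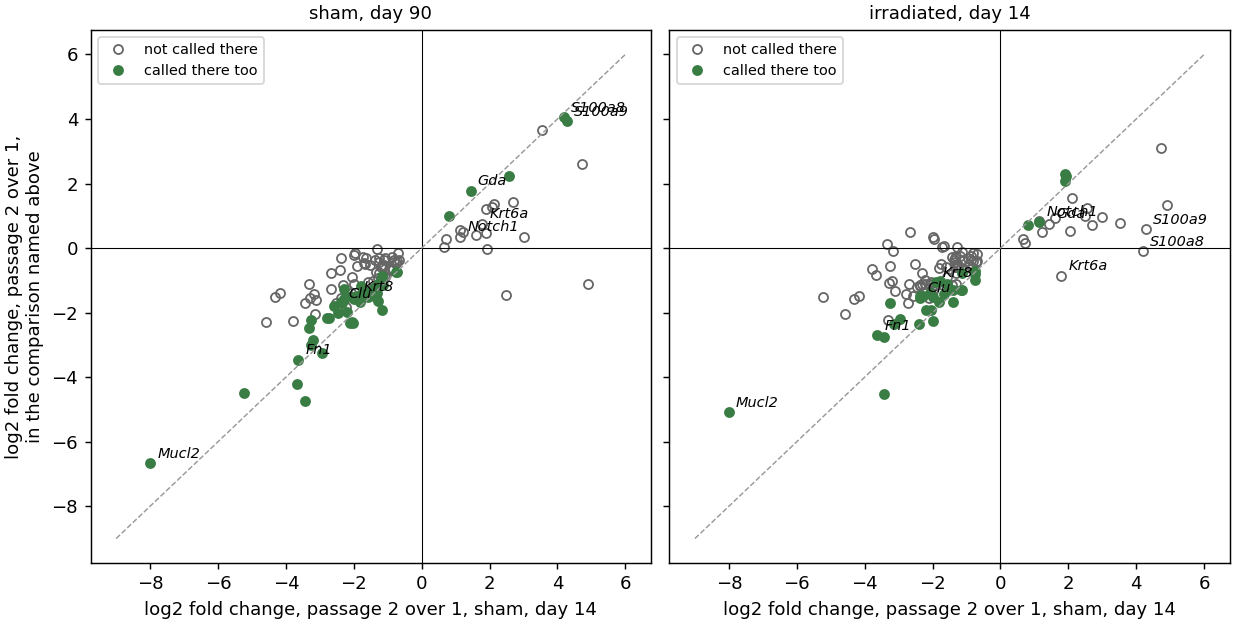
Log2 fold change of passage 2 over passage 1 for the 125 called genes, sham day 14 (horizontal) against sham day 90 (left) and irradiated day 14 (right, vertical axes), with genes called there too filled and the dashed line marking equal values. All 102 lower genes are below 0 at day 90, and 95 of the 102 are below 0 in irradiated organoids. The fold changes of S100a8 and S100a9 are high at day 90 and small in irradiated organoids (-0.10 and 0.59). Irradiated passage 1 was at 41.9 ± 29.7 and 12 ± 9.43 CPM (SD, n = 3), against 2.81 ± 1.12 and 1.15 ± 0.505 CPM in sham passage 1.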

How the data were processed

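The 6 libraries were RNA from salivary gland organoids, isolated with RNeasy and DNase I and made into libraries with the QuantSeq kit, which reads the 3' end of polyadenylated transcripts, per the labels' protocols. Counts therefore do not grow with transcript length. The authors deposited whole-number read counts per Ensembl gene, 1 file per library, with 47643 genes and 5 lines that name no gene. Those 5 lines were kept out of library sizes and tests, and their share is given as reads on no gene. The submitters' processing notes name bcl2fastq and GRCm39. For alignment, counting and strand handling, the tools are not given in sources used here, so overlapping, antisense and near-identical genes can share reads. Symbols were matched by identifier (47224 matched).

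The model was a quasi-likelihood fit in edgeR 4.0.16 (R 4.3.3) to all 24 libraries, with TMM factors, filterByExpr over the 8 groups and a mean for each group, so that the spread was estimated jointly. Two-sided p-values were adjusted by Benjamini-Hochberg across the 10563 genes that passed the filter, with calls made at 0.05. The SE was worked back as the absolute log2 fold change over the square root of F. The members, the 40 gene lists and the 24 listed genes to be named were chosen with earlier results of these data known. Named were the 12 largest called changes per direction at a mean of 5 CPM or more without overlap, those 24 genes, up to 4 called members of each list or its 2 of lowest p, and the leading genes of each difference. Named after their values were seen were Slc12a2, Cldn7, Epcam, Cldn2, Slc4a4, Atp1b1, Pip, Spp1, Ccn2, Lox, Id2, Angpt1, Tnfrsf11b, Sema3e, Dync1i1, Bend7, Sorbs2, Homer2, C1qtnf1, Atp10b, Krt6b, Krt16, Sprr1b, Krt10, Krt13, Krtdap, Krt17, Jag1, Hey1, Gda, Hif1a, Efna3, Skint3, Slc39a6, Isg15, Ifi44, Chrm3, Prol1, Scnn1a, Procr, Igfbp2 and those of the closing section. Alternatives were DESeq2 1.42.0, other factors and filters, only the compared groups, a replicate block, covariates and leaving out each library. Irradiated groups enter only as the comparison named.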

Additional observations from a re-analysis of the deposited data

How the results depend on the processing

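Of 67 called genes named here, none changed direction under 16 alternatives: 770 of 1054 values kept the call and 284 lost it. Among the genes named as not called, 112 values under the alternatives gained a call, so those results also depend on the setting. The 125 calls became 539 with no filter on low counts, 184 with DESeq2 and 15 with the share of reads on no gene as a covariate (added after seeing the data). They ranged from 20 to 95 when 1 library was left out. Only the compared groups gave 156 calls (54 higher, 102 lower), and DESeq2 gave 44 higher and 140 lower. At day 90 the 144 calls became 704 with no filter and 538 with a replicate block. For the difference between days the 0 calls became 1 with DESeq2 and 91 with no filter, and for the difference between treatments 20 and 241, with 0 to 24 when 1 library was left out. The cause was not tested in any of these.

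The replicate numbers did not pair the libraries throughout: deviations of same-numbered passage 1 and passage 2 libraries correlated at 0.06, 0.40 and -0.27. Between unlike numbers they reached 0.35 (passage 1 replicate 3 with passage 2 replicate 1) and -0.42 (passage 1 replicate 2 with passage 2 replicate 1). The libraries did not group by passage alone. Levels in passage 2 replicate 1 correlated at 0.938 with passage 1 replicate 3, and at 0.907 and 0.906 with passage 2 replicates 2 and 3. What these libraries share was not tested. With the replicate block 102 genes were called (33 higher, 69 lower), 65 of them among the 125. Genes not called changed sign as follows. Vim was at -0.26 with the block and -0.28 with the covariate, and from -0.99 to 0.47 when 1 library was left out. With that covariate Isg15 was at -1.01, Ifi44 at -1.46 and Tap1 at -0.07. Leaving out 1 library moved Sox9 between -0.02 and 0.32, Aldh1a3 between -0.39 and 0.08, Cdkn2a between -0.11 and 0.44 and Postn between -0.54 and 0.15. Squamous calls ranged from 0 with the covariate to 15 with no filter. Some lists without a call in the main fit reached up to 15 higher calls (interferon), 6 (NRF2 and glutathione) and 4 (basal duct) under an alternative. These lists had 0 whenever 1 library was left out. At this depth, genes under a few CPM rest on a handful of reads.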

Other observations

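Some lower genes outside the lists, chosen after their values were seen, add to the picture of passage 2. Amot, the angiomotin scaffold that holds YAP at junctions, was at 27.6, 37.6 and 37.3 CPM in passage 1 and at 8.48, 8.82 and 8.57 CPM in passage 2 (log2 fold change -1.99, SE 0.39, edgeR adjusted p = 0.0121). Cgnl1, the paralog of cingulin, was at 153 ± 23 against 64.0 ± 8.01 CPM (SD, n = 3; edgeR adjusted p = 0.0213). Foxj1, the master factor of motile cilia, was at 2.69, 4.05 and 5.11 CPM against 0.566, 0.588 and 0 CPM (edgeR adjusted p = 0.0444), a handful of reads per library. Runx2, a transcription factor best known from bone, was at 63.2, 60.8 and 57.7 CPM against 32.2, 36.4 and 35.1 CPM (edgeR adjusted p = 0.0444). Every passage 2 library of these 4 genes was below every passage 1 library. The pyruvate dehydrogenase kinase Pdk4, the protease Prss22, the double-stranded RNA sensor Tlr3, the small heat shock protein Cryab and the matrix protein Smoc1 had log2 fold changes of -2.41, -2.38, -1.30, -1.30 and -3.25 (edgeR adjusted p 0.0251, 0.0345, 0.0444, 0.0436 and 0.0410). All 9 lost their calls without 3 or more of the 6 libraries, with adjusted p up to 0.280.

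Smgc and Muc19, neighbouring salivary mucin genes of the acinar list, did not pass the filter on low counts. Smgc had 2 counts over the 3 passage 1 libraries and 100 over the 3 passage 2 libraries, and Muc19 had 6 and 50. They were not tested.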
